A study of Mus musculus with 4 samples.

Results

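The 8 genes described here are Adamdec1, Adamts1, Adamts2, Adamts4, Adamts5, Adamts9, Adamts12 and Adamts15, of 28692 genes counted. They were chosen by name, with earlier results of these data known, as secreted metalloproteases of the ADAMTS family together with the ADAM-like gene Adamdec1. Their UMIs (unique molecular identifiers, each marking a captured RNA molecule) were summed by intestine and by cell class. The data are 4 droplet single-cell RNA libraries, 2 of small intestine and 2 of colon, from sorted mesenchymal stromal cells (MSC) of the lamina propria. MSC hold fibroblasts (FB), smooth muscle cells (SMC) and pericytes, and the design asks how each subset differs from the others and between the intestines.

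Both groups were untreated C57BL6/Nrj females aged 8 to 10 weeks, with 2 independent experiments for each intestine and 3 pooled mice per experiment. The muscle layer was taken off first, and the gate was live, CD45-, Ter119-, CD31-, BP3-, EpCAM-, L1CAM- and Itgb1+. Each library therefore averages several animals. The study mentions sorting subsets of both intestines from the same mice, but does not state whether this holds for same-numbered libraries. P-values of colon against small intestine within a class measure only the spread between these libraries. Those of comparisons made within libraries measure only how such differences vary from library to library.

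ADAMTS enzymes are secreted, furin-activated zinc proteases that bind and cut extracellular matrix. ADAMTS1, ADAMTS4, ADAMTS5, ADAMTS9 and ADAMTS15 cleave versican and related proteoglycans, ADAMTS2 removes the N-propeptide of fibrillar procollagens, and ADAMTS12 cleaves cartilage oligomeric matrix protein. ADAMDEC1 is a secreted ADAM-like protein with an unusual zinc-binding site, known as a gene of intestinal stroma and macrophages.

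Small intestine replicates 1 and 2 held 2061 and 16795 barcodes, and colon replicates 1 and 2 held 2590 and 13537. Kept cells had a median of 6949.5, 2733, 8809 and 3881.5 UMIs in the same order. The number 2 libraries were thus larger and shallower in both intestines, and their headers name another Cell Ranger version than those of the number 1 libraries, so within-number differences are given below beside pooled ones. Of the kept barcodes, 7 were shared by the number 1 libraries, 55 by the number 2 libraries and 2 by the small intestinal libraries. Class gates used marker genes, none of them one of the 8. The gates gave 181, 1526, 564 and 3116 Pdgfra-high FB, 284, 2361, 251 and 2400 CD81+ FB, 742, 10094, 918 and 5526 remaining FB, 74, 240, 253 and 826 SMC, and 55, 33, 91 and 75 pericytes. All 7 pericyte markers and all 7 SMC markers were detected in their own class in every library. Pericytes and SMC also carried FB RNA: the 6 general FB markers summed to 1992, 11393, 3288 and 11981 UMIs per 1000000 UMIs of the class in that library (CPM) in pericytes and to 7239, 16892, 5544 and 7153 CPM in SMC, against 22228 to 31908 CPM in remaining FB. In pericytes this FB level was higher in both number 2 libraries than in the number 1 libraries, and in colon replicate 1 only 69.7% of gated CD81+ FB fell into the cluster of that name. Their part in the results below was not tested.

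On mouse build GRCm38 the genes lie on 7 chromosomes. Adamts1 (chr16:85793827-85803113, minus strand) and Adamts5 (chr16:85856173-85901828, minus strand) are neighbours 53060 bases apart, with 1 non-coding gene between them. Adamdec1 lies at chr14:68563380-68582095 and Adamts15 at chr9:30899155-30922452, both on the minus strand. Adamts12 lies at chr15:11064790-11349231 and Adamts2 at chr11:50602084-50807573, both on the plus strand. Adamts4 lies at chr1:171250421-171260637 on the plus strand and Adamts9 at chr6:92772699-92943492 on the minus strand. Several of the 8 genes overlap genes on the opposite strand, Adamts9 with 3 of them and Adamts2 with non-coding ones. Whether counting used strand is not given in the sources used here.

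The sequence just before the start of transcription is shown for Adamts1 and Adamts9, higher in pericytes than in remaining FB, and for Adamts2, lower there. RefSeq (GRCm38.p6) gave windows for 4 of the 8 genes. Each line runs 5' to 3' on the gene's own strand over 250 bases ending at the base before the start, and capitals mark a match to the TATA box letters TATAAA or the GC box letters GGGCGG on either strand.
Adamts1, chr16:85803114-85803363: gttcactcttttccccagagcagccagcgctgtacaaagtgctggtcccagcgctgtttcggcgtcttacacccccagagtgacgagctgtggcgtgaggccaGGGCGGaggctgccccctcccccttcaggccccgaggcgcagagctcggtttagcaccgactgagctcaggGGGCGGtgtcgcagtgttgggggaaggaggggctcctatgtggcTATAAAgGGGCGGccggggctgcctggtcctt
Adamts9, chr6:92943535-92943784: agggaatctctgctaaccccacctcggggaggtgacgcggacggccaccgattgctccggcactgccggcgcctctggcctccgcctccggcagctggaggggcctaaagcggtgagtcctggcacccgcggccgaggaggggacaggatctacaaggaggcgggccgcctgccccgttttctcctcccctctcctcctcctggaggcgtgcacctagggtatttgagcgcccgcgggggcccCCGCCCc
Adamts2, chr11:50601835-50602084: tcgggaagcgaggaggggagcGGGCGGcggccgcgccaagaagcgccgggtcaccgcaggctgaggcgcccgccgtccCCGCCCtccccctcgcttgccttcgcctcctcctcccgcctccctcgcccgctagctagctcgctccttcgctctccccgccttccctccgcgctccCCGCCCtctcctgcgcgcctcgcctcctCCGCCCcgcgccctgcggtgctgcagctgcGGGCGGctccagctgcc

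Adamts1 had TATAAA from position -32, counted from its start, which 13.6% of the 32851 RefSeq promoter windows hold on either strand, and 3 GC boxes. Adamts2 had 5 GC boxes and Adamts9 had 1, all without TATAAA, where 35.7% of windows hold a GC box. The AP-1 letters TGANTCA, the cAMP response letters TGACGTCA and the RBPJ letters TGGGAA were in none of the windows of Adamts1, Adamts2, Adamts9 and Adamts12, against 7.81%, 1.79% and 25.6% of all windows. These are descriptions of letters in this window.

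Adamdec1 was the most abundant of the 8 by UMIs, with 456676 in kept cells, and its RNA lay in FB and SMC. In remaining FB its level was 7163 and 5776 CPM in the small intestinal libraries and 5706 and 3236 CPM in the colonic ones. In Pdgfra-high FB, the subepithelial subset, it was 3051 and 3467 CPM in small intestine and 6071 and 4472 CPM in colon. In CD81+ FB, the subset that lies below the crypts, it was 451, 536, 569 and 185 CPM. The CD81+ level was under that of both other FB classes in every library, and the groups did not overlap.

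Across the 20 class-by-library sums, edgeR's quasi-likelihood test gave Adamdec1 a log2 fold change of -3.55 ± 1.20 (SE) for CD81+ FB against remaining FB, with an adjusted p of 0.102. It was therefore not called, a call being an adjusted p under 0.05 over all genes tested and a log2 fold change beyond 1.5. None of the 8 was called in that comparison, in which 3.65% of 11904 genes were. With only those classes in the fit, an alternative chosen after seeing the data, Adamdec1 was -3.58 with an adjusted p of 1.5e-05. Against CD81+ FB, Pdgfra-high FB had a log2 difference of 3.21 ± 1.19 in Adamdec1 at an adjusted p of 0.0539. This difference was called under 5 of 15 alternatives. They were DESeq2, clusters in place of gates, a stricter gate and, chosen after seeing the data, replicate 2 libraries alone and both classes alone.

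Thinning every cell to 1000 UMIs gave the same picture in shares of cells with an Adamdec1 UMI. The share was 92.3%, 91.6%, 82.3% and 63.3% in remaining FB, 82.6%, 78.7%, 89.1% and 85.8% in Pdgfra-high FB, and 16.4%, 23.1%, 16.8% and 7.96% in CD81+ FB, in the order small intestine 1 and 2, colon 1 and 2. Without thinning the CD81+ shares were 48.9%, 40.8%, 33.9% and 18.1%. As a background, the endothelial clusters of the number 1 libraries, which should lack the gene, had 2.06% and 0.911% of thinned cells with a UMI. Shares in CD81+ FB were thus above that background in both number 1 libraries. In colon replicate 2 the endothelial cluster of 24 cells had 265 CPM of Adamdec1. The CD81+ FB clusters of that library were below this, at 167, 144 and 162 CPM.

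**Figure D1:**
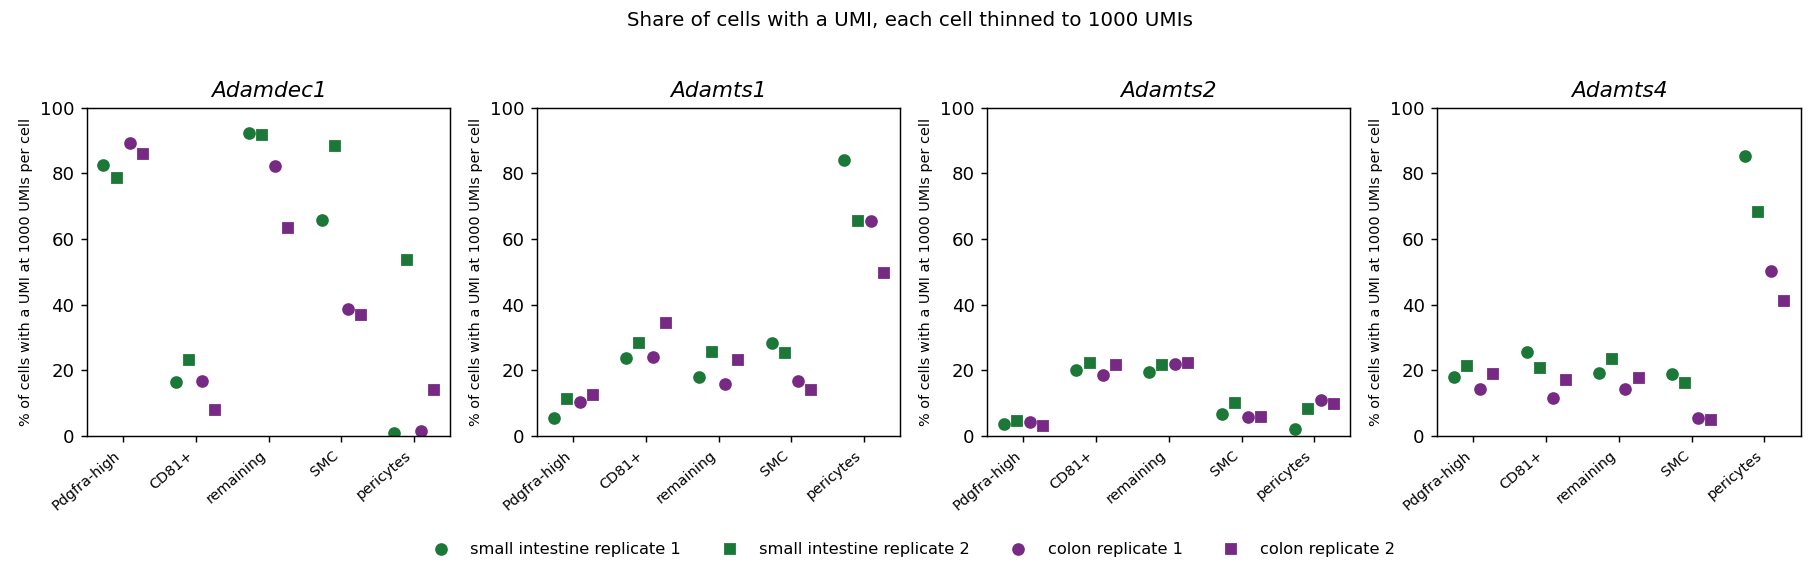
Percent of cells with at least 1 UMI of each gene after thinning every cell to 1000 UMIs, by class and library (points). For Adamdec1, remaining FB sit between 63.3% and 92.3% and CD81+ FB between 7.96% and 23.1%.

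Pericyte values of Adamdec1 split by library number and not by intestine. They were 10.8 and 4219 CPM in small intestine and 23.0 and 886 CPM in colon, so the number 2 libraries were high in both intestines. FB RNA moved with them: Dcn, the FB proteoglycan decorin, was at 336 and 4615 CPM in small intestinal pericytes and at 1136 and 4893 CPM in colonic ones. The test against remaining FB gave -2.97 ± 1.25 on the log2 scale with an adjusted p of 0.110. With the number 1 libraries alone, chosen after seeing the data, the difference was -8.49 with an adjusted p of 0.00702.

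Within remaining FB the study separates cells by Fgfr2, the receptor for FGF7 and FGF10. Cells with an Fgfr2 UMI had 8045, 6782, 6821 and 4717 CPM of Adamdec1, and cells without had 5677, 5302, 3795 and 2648 CPM, so the level was higher with an Fgfr2 UMI in 4 of 4 libraries. The log2 difference was 0.62 ± 0.11 with an adjusted p of 0.0519 by edgeR. None of the 8 was called there, where 0.271% of 12178 genes were. In colon, cells with a UMI of Thy1, which encodes CD90, had 4734 and 2093 CPM of Adamdec1 against 6620 and 3701 CPM in cells without, a split added after seeing the data and given as values only.

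Adamts2, the procollagen N-proteinase, differed little between libraries in remaining FB and in CD81+ FB. Its level was 225, 246, 258 and 262 CPM in remaining FB and 236, 253, 229 and 253 CPM in CD81+ FB. In Pdgfra-high FB it was 38.2, 57.7, 42.8 and 32.1 CPM. No library of Pdgfra-high FB came near the other FB classes.

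Against remaining FB, in Pdgfra-high FB Adamts2 fell by 2.76 ± 0.25 on the log2 scale (adjusted p 3.92e-07, edgeR), and it was the 1 member of the 8 called in that comparison, where 4.97% of genes were called lower and 3.17% higher. Against CD81+ FB it fell by 2.88 ± 0.25 (adjusted p 1.27e-07), beside Adamts1, in a comparison with 6.42% of genes called lower. In SMC it was 72.3, 121, 59.0 and 63.3 CPM and fell by 1.87 ± 0.25 (adjusted p 3.31e-05), again as the 1 member called, with 5.15% of genes lower. In pericytes, at 25.3, 137, 132 and 109 CPM, it fell by 1.54 ± 0.27 (adjusted p 0.000558), close to the fold threshold. That pericyte call was lost under DESeq2 size factors, the DESeq2 test, clusters in place of gates, without small intestine replicate 1, and in the libraries of either replicate number alone, the last chosen after seeing the data.

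Between the intestines Adamts2 differed little. The colon to small intestine log2 differences were -0.24 ± 0.32 in Pdgfra-high FB, -0.20 ± 0.26 in CD81+ FB, 0.11 ± 0.21 in remaining FB, -0.64 ± 0.36 in SMC and 0.89 ± 0.79 in pericytes, none of them called.

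**Figure D2:**
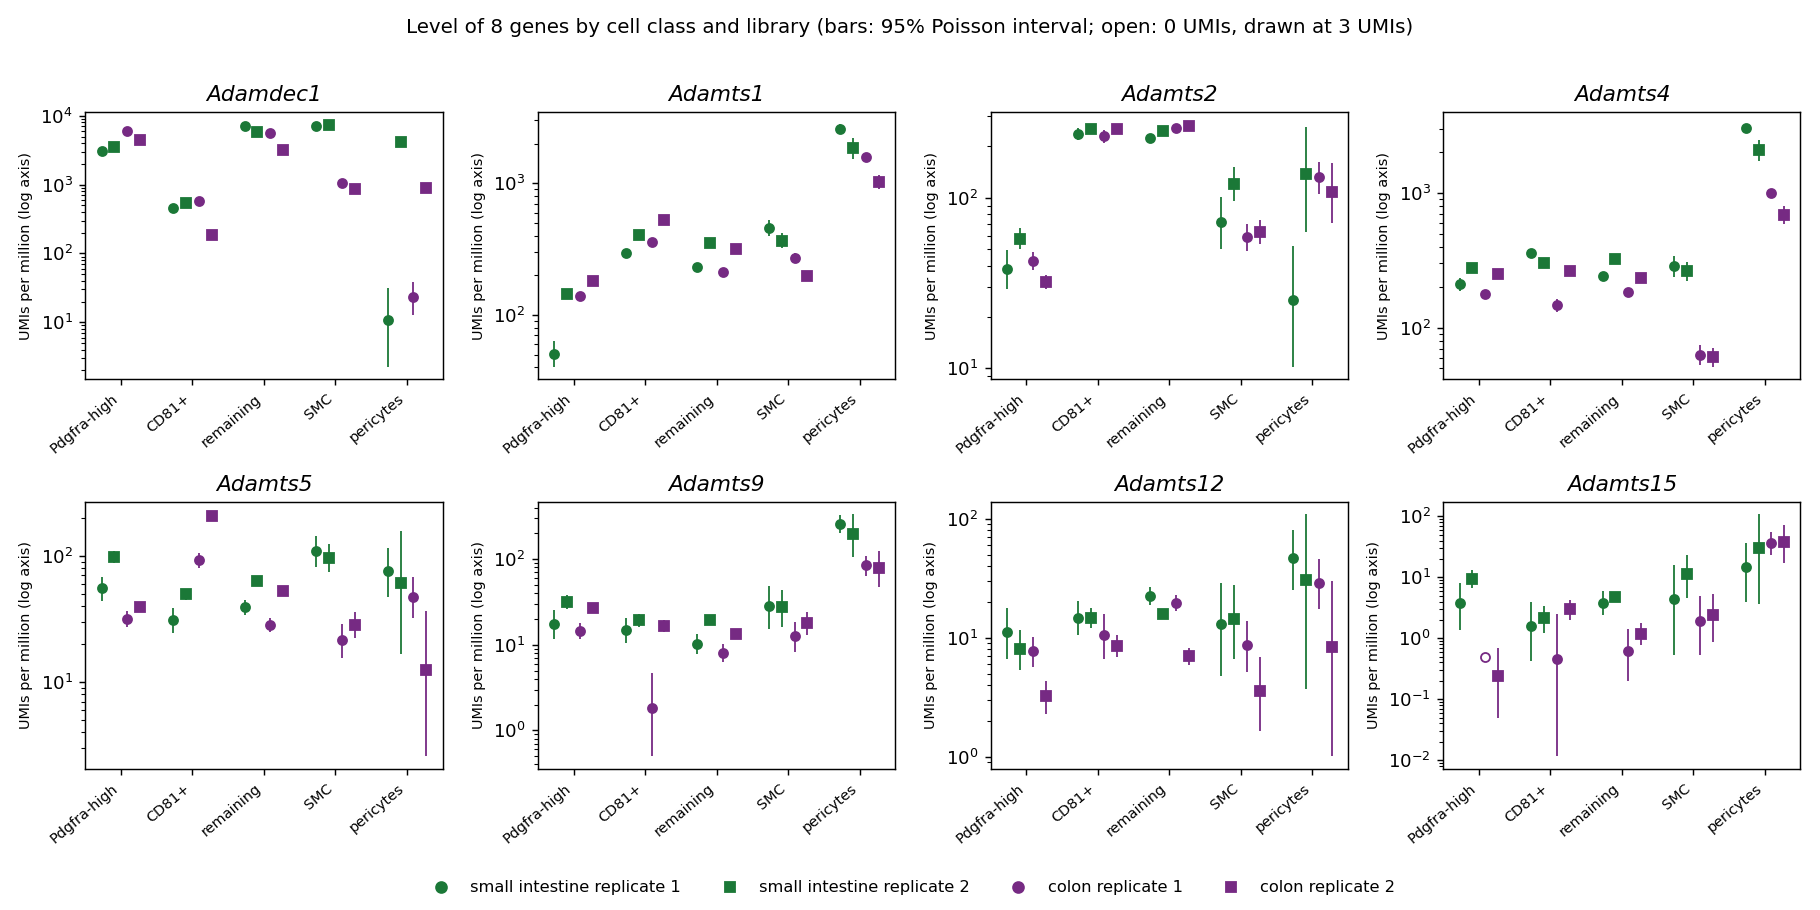
CPM on a log axis for each gene (panels), class and library (points), with exact 95% Poisson intervals for counting error only and open points for libraries without a UMI, drawn at the 3-UMI floor. Adamts1, Adamts4 and Adamts9 have their highest level in pericytes in every library, and Adamts2 is lowest among FB in Pdgfra-high FB.

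Adamts1, Adamts4, Adamts9 and Adamts15 had their highest level of the 5 classes in pericytes, the contractile cells that wrap small vessels. Adamts1 was at 2603 and 1843 CPM in small intestinal pericytes and at 1590 and 1028 CPM in colonic ones. Remaining FB had 230, 353, 213 and 317 CPM. The ranges were far apart in every library.

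Adamts4 was at 3011, 2071, 994 and 685 CPM in pericytes, against 240, 325, 183 and 233 CPM in remaining FB. Adamts9, the member of the family with the most thrombospondin repeats here, was at 260, 198, 84.2 and 79.4 CPM from 72, 13, 55 and 19 UMIs. In the 4 other classes Adamts9 stayed between 1.82 and 31.8 CPM. Adamts15 was at 14.5, 30.5, 36.8 and 37.6 CPM in pericytes, from 4, 2, 24 and 9 UMIs, so its small intestinal pericyte values rest on few molecules.

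By edgeR against remaining FB the log2 differences were 2.49 ± 0.40 for Adamts1 (adjusted p 0.000445), 2.41 ± 0.38 for Adamts4 (adjusted p 0.000354), 3.41 ± 0.35 for Adamts9 (adjusted p 3.93e-06) and 4.07 ± 0.82 for Adamts15 (adjusted p 0.00173). These 4 of the 8 rose, in a comparison where 5.66% of 11904 genes were called higher and 4.71% lower. The median log2 difference of the 8, which were chosen with earlier results of these data known, was 1.54, against -0.07 over all genes. For the 9 other ADAMTS genes tested the median was -1.29. In replicate 2 libraries alone, chosen after seeing the data, Adamts9 was the 1 member still called, and without colon replicate 1 Adamts15 was not called.

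Endothelial RNA was also higher in pericytes. The 7 endothelial markers summed to 571, 45.7, 623 and 109 CPM in pericytes and to 15.7 to 50.5 CPM in remaining FB. In the number 2 pericytes 6 of the 7, Pecam1 and Cdh5 among them, were at 0. The endothelial clusters themselves had 619 and 506 CPM of Adamts1 in small intestine and colon replicate 1, below the pericytes of those libraries, and 1103 CPM in colon replicate 2, above the 1028 CPM of its pericytes. Adamts9 was at 129, 76.0 and 441 CPM in the same clusters, the last from 24 cells. The part of endothelial RNA in the pericyte levels was not tested.

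Thinned to 1000 UMIs, 84.0%, 65.6%, 65.5% and 49.7% of pericytes held an Adamts1 UMI and 85.3%, 68.3%, 50.2% and 41.3% an Adamts4 UMI. In the plasma cell cluster of small intestine replicate 1, a type that should lack them, both were at 0% of 59 cells.

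**Figure D3:**
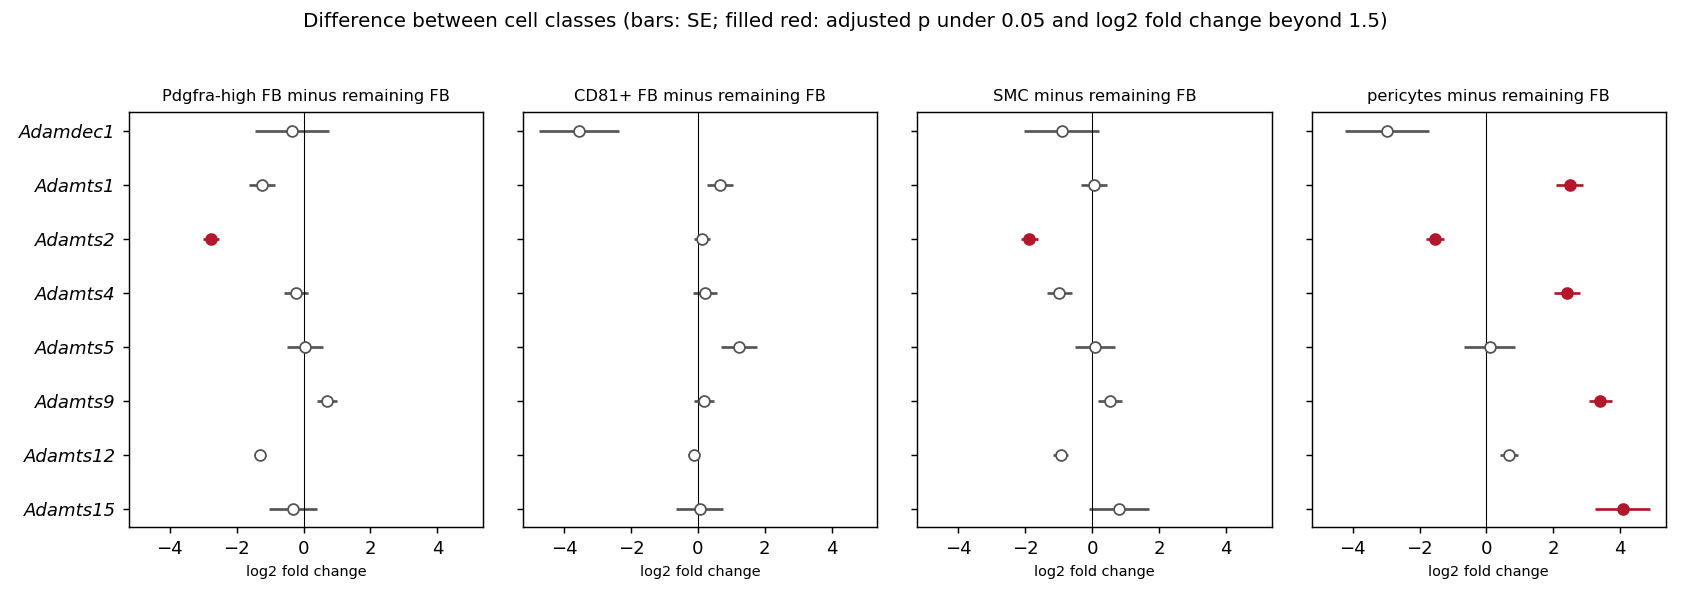
Log2 differences with their SE (bars) for each gene in the class comparisons (panels), filled where called. In the pericyte panel Adamts1, Adamts4, Adamts9 and Adamts15 lie to the right at 2.49, 2.41, 3.41 and 4.07 and Adamts2 lies to the left at -1.54.

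Among FB, Adamts1 was lowest in Pdgfra-high FB in every library. Its levels there were 50.8, 145, 139 and 180 CPM, beside 298, 404, 358 and 531 CPM in CD81+ FB. It fell by 1.91 ± 0.39 on the log2 scale against CD81+ FB (adjusted p 0.00154, edgeR). Against remaining FB the log2 difference was -1.25 ± 0.39 with an adjusted p of 0.0297, which misses the fold threshold.

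The 15 immediate early and stress genes described below moved with it, summing to 18316, 25053, 49370 and 52136 CPM in Pdgfra-high FB and to 33915, 36443, 51792 and 55236 CPM in CD81+ FB, and their part was not tested.

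Adamts4 was not called between FB classes. It was at 211, 280, 179 and 251 CPM in Pdgfra-high FB and at 356, 300, 147 and 262 CPM in CD81+ FB. The log2 difference between them was -0.42 ± 0.36 (adjusted p 0.411), and the groups overlapped.

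Immediate early and stress genes, which respond within minutes to tissue handling, were read beside these. Adamts1 and Adamts4 moved with that list from cell to cell. In remaining FB the 15 listed genes summed to 36385, 40826, 59032 and 67082 CPM in cells with an Adamts1 UMI and to 24038, 32011, 31834 and 48963 CPM in cells without. The sum was higher in cells with an Adamts1 or Adamts4 UMI in all 3 FB classes and in SMC, in 4 of 4 libraries, by 0.17 to 1.53 on the log2 scale. For Adamts2 the same differences in remaining FB were 0.16, 0.01, -0.21 and 0.02.

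In pericytes of small intestine replicate 1 the direction was the other way, -0.28 for Adamts1 and -0.08 for Adamts4. There 53 and 52 of the 55 pericytes held a UMI, so very few cells were without. In pericytes of small intestine replicate 2, colon replicate 1 and colon replicate 2 the differences were 0.19, 0.62 and 1.39 for Adamts1. For Adamts4 they were 0.54, 0.89 and 1.12. Between classes the sum was 38210, 39160, 73452 and 34496 CPM in pericytes and 30911, 36413, 45730 and 58490 CPM in remaining FB. It was thus higher in pericytes in 3 of 4 libraries and lower in colon replicate 2, while Adamts1 and Adamts4 were higher in pericytes in every library. The part of these genes in the pericyte levels was not tested. Deeper cells are more likely to hold a UMI, and its part in these cell-level differences was not tested.

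**Figure D4:**
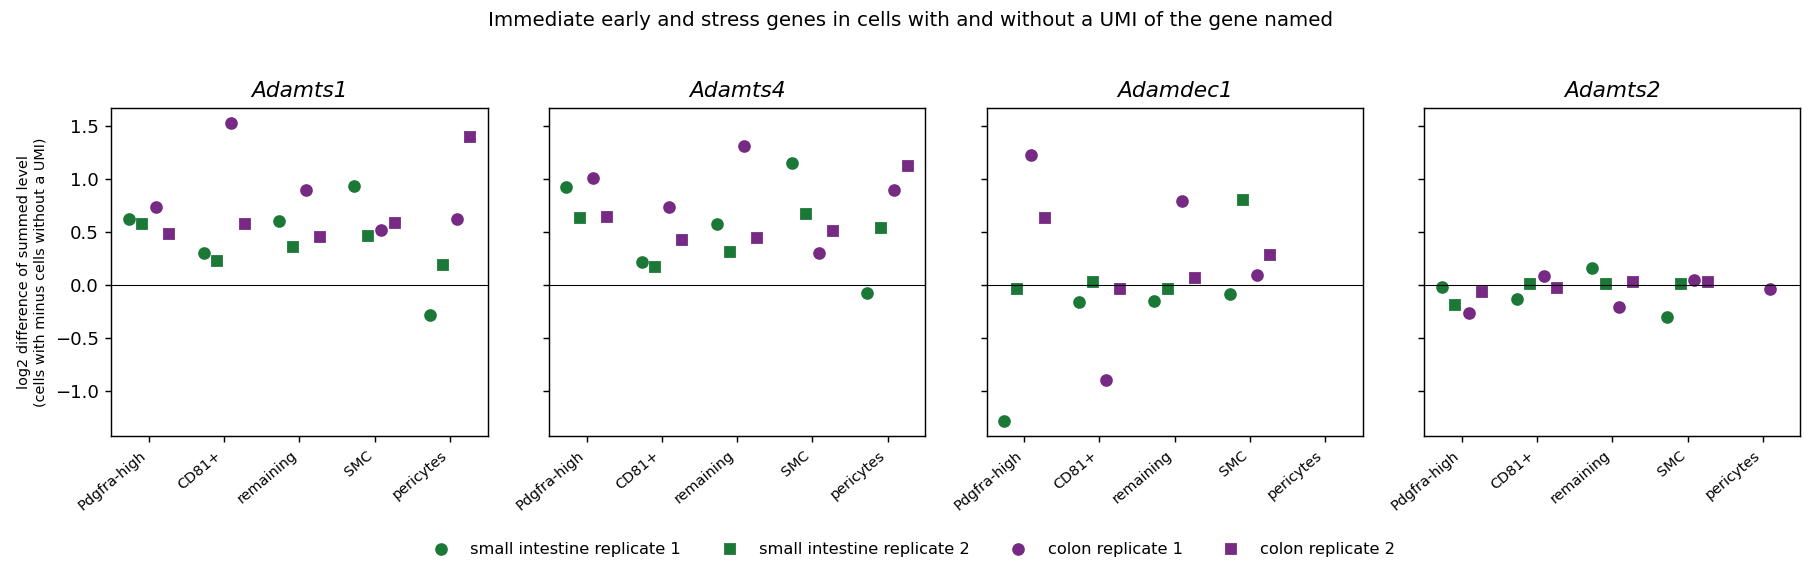
Log2 ratio of the summed CPM of 15 immediate early and stress genes in cells with a UMI of a member over cells without, by class and library (points). Adamts1 and Adamts4 lie above 0 in every FB class and in SMC, and Adamts2 lies around 0.

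Adamts5, a major aggrecan-cleaving enzyme of cartilage, differed in its intestinal pattern between FB classes. In CD81+ FB its small intestinal level was 31.2 and 49.5 CPM and its colonic level 92.1 and 206 CPM. In Pdgfra-high FB the same levels were 55.1 and 97.5 CPM and 31.9 and 39.5 CPM. The intestines did not overlap in either class, which held for 29.4% of genes in the direction seen in CD81+ FB and for 25.4% in that seen in Pdgfra-high FB, and the directions were opposite.

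Taken class by class, neither was called by edgeR. The log2 differences were 1.73 ± 0.48 in CD81+ FB (adjusted p 0.298) and -0.95 ± 0.39 in Pdgfra-high FB (adjusted p 0.436). In CD81+ FB Adamts5 was called by DESeq2, without the low-count filter and with the replicate block. Over the alternatives its log2 difference there ran from 0.97 to 2.21. The difference of the 2 colon effects was 2.68 ± 0.23 (adjusted p 4.65e-06), tested in 12 FB sums with library as a block. For remaining FB, at 39.3, 62.8, 28.3 and 53.2 CPM, the colon effect minus that of CD81+ FB was -2.11 ± 0.21 (adjusted p 8.82e-05). Such differences passed an adjusted p of 0.05 for 13.3% and 3.97% of 12934 genes. Within library numbers the CD81+ log2 ratio of colon to small intestine was 1.56 and 2.06.

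Within CD81+ FB, cells with a UMI of Pi16, a marker of adventitial FB, held more Adamts5. They had 37.6, 64.3, 167 and 286 CPM against 28.0, 46.5, 50.4 and 115 CPM in cells without, as values of a split added after seeing the data. Colon was above small intestine on both sides of the split. Such cells made up 89 of 284 and 379 of 2361 CD81+ FB in small intestine and 93 of 251 and 1224 of 2400 in colon.

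SMC gave the one difference between intestines called for a member in a single class. Adamdec1 was at 7149 and 7293 CPM in small intestinal SMC and at 1072 and 855 CPM in colonic ones. In colon it fell by 2.88 ± 0.32 on the log2 scale (adjusted p 0.0284, edgeR), with 0.304% of 9553 genes called lower. Within library numbers the ratio was -2.74 and -3.09. The call was lost when doublets were kept, at an adjusted p of 0.0649.

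FB RNA moved with that difference in part. The 6 general FB markers summed to 7239 and 16892 CPM in small intestinal SMC and to 5544 and 7153 CPM in colonic ones, and Fgfr2 was at 98.6 and 131 CPM against 22.4 and 18.8 CPM. The part of FB RNA in the difference was not tested.

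The other members in SMC were lower in colon too. Adamts4 had 287 and 263 CPM in the small intestinal libraries and 63.3 and 60.5 CPM in the colonic ones, a log2 difference of -2.12 ± 0.30 (adjusted p 0.0528). Adamts5 was at 110 and 96.8 CPM against 21.4 and 28.4 CPM, a log2 difference of -2.01 ± 0.35 (adjusted p 0.0790). Neither pair of groups overlapped and neither passed the threshold. Both were called by DESeq2, without the low-count filter and with the replicate block, and over the alternatives their adjusted p ran from 1.24e-10 to 0.131 for Adamts4 and from 4.19e-05 to 0.222 for Adamts5.

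Of 6 members with at least 10 UMIs in 2 or more SMC libraries, 6 had both colon libraries below both small intestinal ones, where 18.5% of 9806 genes did. The other members, Adamts12 and Adamts15, had 42 and 19 UMIs in all SMC. In pericytes 5 of 7 members were lower in colon without overlap, against 13.1% of genes, and 0 of 4425 genes, 0%, were called by edgeR there. At an unadjusted p under 0.05 edgeR counted 123 genes, 2.78% of those tested, and DESeq2 called 7. Adamts1, Adamts4 and Adamts9 had pericyte log2 differences of -0.76 ± 0.45, -1.60 ± 0.45 and -1.50 ± 0.42, each with an adjusted p of 1.00. The small intestinal pericyte values rest on 55 and 33 cells.

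In Pdgfra-high FB none of the 8 was called between intestines, where 1.42% of 11630 genes were. Adamdec1 was higher in both colon libraries, by 0.83 ± 0.29 on the log2 scale (adjusted p 0.332), and 15.2% of genes had both colon libraries above both small intestinal ones in this class. In CD81+ FB and remaining FB none was called, against 0.290% and 0.409% of genes. Adamdec1 in remaining FB had a log2 difference of -0.59 ± 0.35 (adjusted p 0.701).

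Adamts15, which also cleaves versican, was scarce in FB. Pdgfra-high FB held 6 and 34 UMIs of it in the small intestinal libraries and 0 and 3 in the colonic ones. These are 3.76 and 9.47 CPM against 0 and 0.236 CPM, and the exact 95% Poisson interval of colon replicate 2 runs from 0.0486 to 0.689 CPM, for counting error only. The 0 in colon replicate 1 allows up to 0.491 CPM, 3 UMIs of that class. The colon effect in this class, -5.17 ± 1.03 with an adjusted p of 0.108, is a fitted value that depends on how a count of 0 is handled.

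The Adamts15 colon effect differed between FB classes. It was higher in CD81+ FB than in Pdgfra-high FB by 5.34 ± 0.83 (adjusted p 0.000418) and in remaining FB than in Pdgfra-high FB by 3.11 ± 0.81 (adjusted p 0.0257), the latter in a comparison with 8.22% of genes. CD81+ FB had 1.56, 2.11, 0.456 and 2.96 CPM, so their intestines overlapped. Leaving out either number 2 library, the larger ones, ended both calls. The call for remaining FB against Pdgfra-high FB was also lost by DESeq2.

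**Figure D5:**
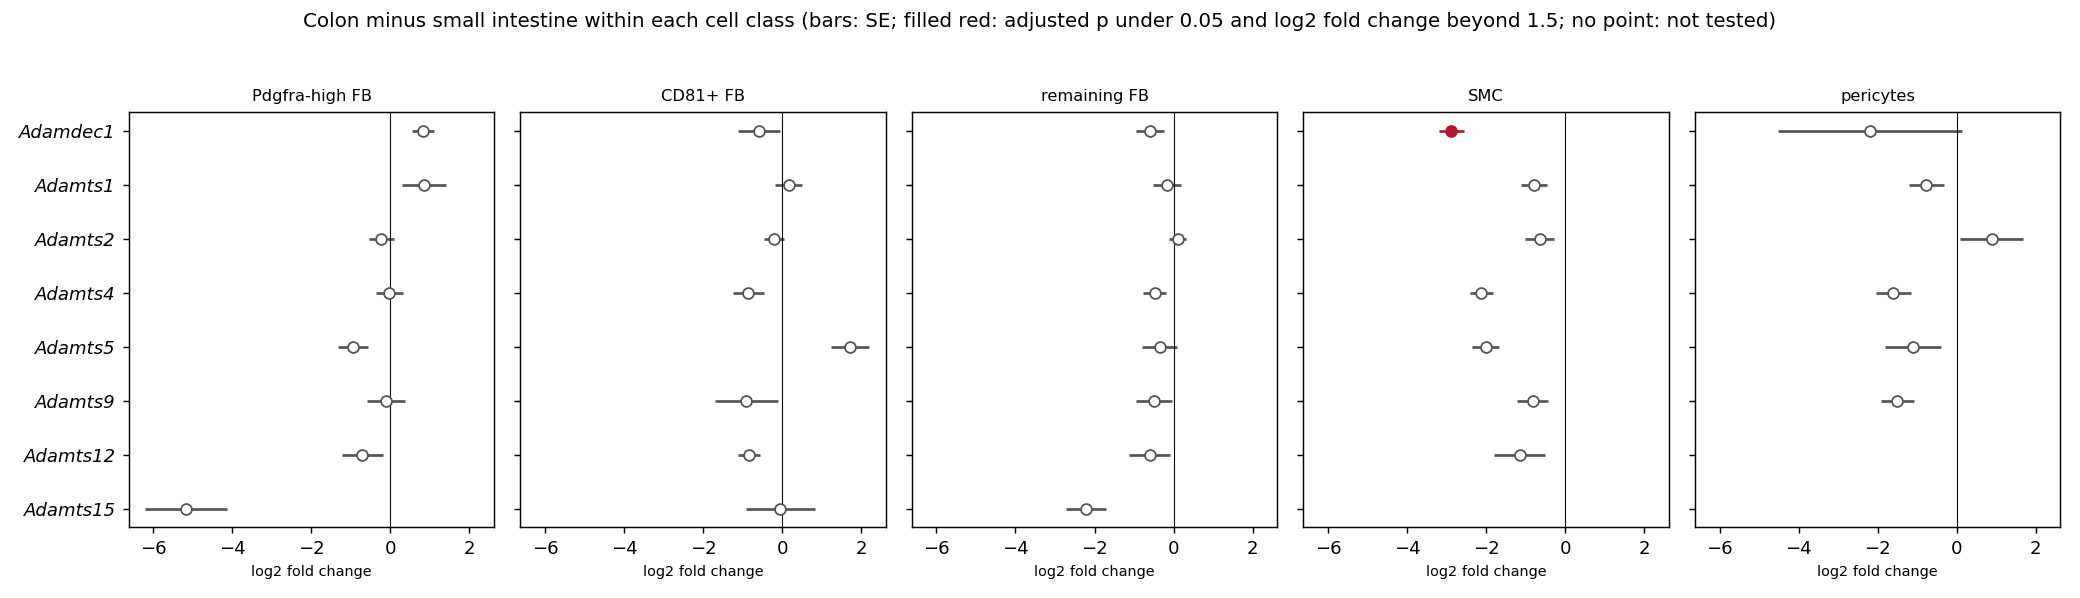
Log2 differences of colon from small intestine with their SE (bars) for each gene, by class (panels), filled where called. In SMC all tested members lie below 0, with Adamdec1 at -2.88 filled, and Adamts5 lies at 1.73 in CD81+ FB and at -0.95 in Pdgfra-high FB.

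Adamts12 was low throughout. Its level was 22.5, 15.9, 19.6 and 7.02 CPM in remaining FB and 11.3, 8.08, 7.69 and 3.22 CPM in Pdgfra-high FB, lower in each library. The log2 difference was -1.30 ± 0.18 with an adjusted p of 3.1e-05, under the fold threshold. Pericytes held 47.0, 30.5, 29.1 and 8.36 CPM, from 13, 2, 19 and 2 UMIs.

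The other ADAMTS genes and the related lists below were chosen with earlier results of these data known. Of 12 other ADAMTS genes 9 could be tested between classes. Against remaining FB, 1 rose and 2 fell in Pdgfra-high FB, 1 was called in CD81+ FB, 2 rose and 3 fell in SMC, and 1 rose and 3 fell in pericytes, beside 3.17% of all genes called higher and 4.97% lower in Pdgfra-high FB, 3.65% called in CD81+ FB, 4.69% higher and 5.15% lower in SMC, and 5.66% higher and 4.71% lower in pericytes. In pericytes against remaining FB, Adamts8 rose by 4.90 ± 0.74 on the log2 scale (adjusted p 0.00025), while Adamts19, Adamts17 and Adamts14 fell. Adamts19 was at 75.6, 71.5, 17.2 and 19.8 CPM in remaining FB and between 0 and 15.2 CPM in pericytes. In Pdgfra-high FB against remaining FB, Adamts18 rose by 3.16 ± 0.49, and Adamts19 and Adamts10 fell. In SMC, Adamts6 and Adamts8 rose and Adamts17, Adamts3 and Adamts14 fell. In CD81+ FB, of these Adamts14 alone was called, and it fell by 1.53 ± 0.34.

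The ADAMTS-like proteins lack the protease domain and sit in matrix. Papln, papilin, was at 15.04, 7.80, 31.1 and 14.2 CPM in Pdgfra-high FB and at most 1.61 CPM in any other class and library, and it rose there by 4.23 ± 0.34 against remaining FB (adjusted p 2.9e-07, edgeR). Adamtsl5, Adamtsl2 and Adamtsl3 fell in the same comparison, so 1 of 7 rose and 3 fell, beside 3.17% and 4.97% of all genes. In CD81+ FB, Adamtsl3 and Adamtsl1 rose by 2.36 ± 0.38 and 2.17 ± 0.40, and Adamtsl2 fell. In SMC against remaining FB 1 of the 7 rose and 1 fell, beside 4.69% and 5.15% of all genes. Thsd4, another of the 7, was at 129, 90.4, 115 and 94.2 CPM in SMC and at 20.1, 18.9, 32.5 and 23.8 CPM in remaining FB. None of the 7 was called in pericytes.

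Proprotein convertases and TIMPs set how much ADAMTS enzyme is active. Pcsk6 was at 355, 333, 334 and 235 CPM in Pdgfra-high FB and at 40.6, 45.6, 134 and 119 CPM in remaining FB, and it rose by 1.85 ± 0.35 (adjusted p 0.0012, edgeR). Pcsk5 went the other way and fell by 1.81 ± 0.32, as Timp3 did. In pericytes Pcsk5, Pcsk6 and Timp2 fell, while Timp3, at 2606, 2041, 1086 and 568 CPM against 343, 470, 475 and 834 CPM in remaining FB, had a log2 difference of 1.48 ± 0.47 (adjusted p 0.0352, edgeR), just under the fold threshold. In SMC, Pcsk5 and Timp1 fell.

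Of the substrates that the gates did not use, Vcan, the versican gene, fell by 2.65 ± 0.60 in pericytes and fell by 2.27 ± 0.52 in SMC against remaining FB. Sema3c, a semaphorin cut by ADAMTS1, fell by 4.46 ± 0.72 in pericytes and fell by 1.81 ± 0.37 in Pdgfra-high FB. Thbs1 and Thbs2 fell in SMC, and in CD81+ FB Nid2 fell by 2.86 ± 0.46. The collagens of this list are gate markers and are not compared.

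In the ADAM family, membrane relatives of these proteases, Adam33 rose by 5.01 ± 0.55 in Pdgfra-high FB and by 3.28 ± 0.78 in SMC. Adam19 and Adam12 also rose in Pdgfra-high FB. Adam22 rose in pericytes, from 3, 0, 4 and 1 UMIs, and in SMC, from 2, 1, 4 and 1 UMIs, so both rest on few molecules. Adam17 and Adam23 fell in pericytes, where Adam17 had 3, 2, 11 and 3 UMIs and Adam23 had 0, 1, 0 and 2. Between intestines Adam23, which lacks a working protease site, was at 6.77 and 4.25 CPM in small intestinal remaining FB and at 151 and 124 CPM in colonic ones. It rose in colon by 4.63 ± 0.34 in remaining FB, 4.14 ± 0.51 in SMC and 7.63 ± 0.45 in Pdgfra-high FB, the last against 1 UMI in each small intestinal library. In colonic Pdgfra-high FB, Adam12 fell by 2.82 ± 0.29 and Nid2 fell by 2.85 ± 0.31.

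The genes whose pattern was most like each member were found by Pearson correlation of log2(CPM + 10) over the 20 class-by-library sums, among 13566 genes. The sums share libraries and classes, so this is a description, and 11 of the 24 genes stayed in the top 3 with a pseudocount of 1 CPM. Adamdec1 was most like Robo2 (r = 0.87), Ghr and Bmp4. Adamts1 was most like Plce1 (r = 0.94), Fosl2 and Peli1, and Adamts4 was most like Midn (r = 0.93), Rassf1 and Plk3. Adamts9 was most like Sema4c (r = 0.95), Eif1b and Gimap6, and Adamts15 was most like Fchsd2 (r = 0.93), Mtus1 and Specc1.

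Adamts2 was most like Gda (r = 0.93), Eln, which encodes elastin, and Gsn. Adamts12 was most like Tnip2 (r = 0.87), Stat2 and Agtr1a. Adamts5 had no close match, with Pxn at r = 0.71 followed by Hivep2 and Rapgef1. Among the members themselves, Adamts4 and Adamts9 were the closest pair (r = 0.88), and the neighbours Adamts1 and Adamts5 had r = 0.12.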

How the data were processed

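The authors prepared 10x Genomics libraries with the 3' or the 5' chemistry, and the kit of each library is not given in the sources used here. They aligned to mm10 with Cell Ranger, which the labels give as 3.0.2 and the file headers as 3.0.2 for the number 1 and 3.1.0 for the number 2 libraries. The deposited files hold raw UMI counts per gene and barcode, with no normalization.

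Cells were kept from 500 genes and 1000 UMIs upwards if no more than 10% of their UMIs were mitochondrial. Doublets were taken out at a fixed scrublet score of 0.2, chosen after the automatic threshold had marked 0 cells of small intestine replicate 2, which removed 26, 931, 44 and 536 cells. Each cell was given to a class by its likelihood under marker profiles learnt from seed cells, and gate details were set after seeing clusters. The members and gene lists were chosen with earlier results of these data known. Named were all 8 members and, from the lists, genes called against remaining FB or between intestines (at most 6 per list and comparison, by smallest adjusted p).

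Counts were then added up over the cells of a class in each library. CPM is UMIs per 1000000 UMIs of that class in that library. edgeR 4.0.16 (R 4.3.3) fitted quasi-likelihood models with TMM scaling, filterByExpr and robust dispersion: 4 sums per class for colon against small intestine, 20 sums with library as a block between classes, and 12 FB sums with library as a block for differences of the colon effect. P-values were adjusted by Benjamini-Hochberg over all genes tested, and differences of the colon effect were called on the adjusted p alone. SE is the log2 fold change divided by the square root of F. An exact permutation test of 2 against 2 libraries cannot go below 0.333, so none is given.

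The test was checked on simulated data: of 200 genes changed by 3 on the log2 scale it recovered 95.0% in SMC between intestines, 65.5% in pericytes between intestines and 91.0% in pericytes against remaining FB. Alternatives were DESeq2 1.42.0, its size factors, no low-count filter, at least 1000 genes per cell, doublets kept, Leiden clusters, a stricter gate, the replicate block, and leaving out each library. Added after seeing the data were each replicate number alone, both compared classes alone, and the splits by Thy1 and Pi16. Counting intervals and floors (3 UMIs) cover counting error only.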

Additional observations from a re-analysis of the deposited data

Results flagged for a closer look

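The colon effect on Adamts5 differed between FB classes in a test of the difference itself. It was higher in CD81+ FB than in Pdgfra-high FB by 2.68 on the log2 scale, and lower in remaining FB than in CD81+ FB, at -2.11. Both passed under all 11 alternatives run. The colon effect on Adamts15 was higher in CD81+ FB than in Pdgfra-high FB by 5.34 and higher in remaining FB than in Pdgfra-high FB by 3.11, from 40 small intestinal and 3 colonic UMIs in Pdgfra-high FB. Both Adamts15 calls were lost without either number 2 library, and that for remaining FB also by DESeq2.

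Endothelial cells were outside every comparison, since the sort was CD31-, yet clusters of them remained in small intestine replicate 1 and in both colon libraries and held member RNA above the floor of 3 UMIs. Adamts1 was at 619 CPM in small intestine replicate 1 and at 506 CPM in colon replicate 1. Adamts4 was at 619 and 96.1 CPM, and Adamts9, which is known from vessels, was at 129 and 76.0 CPM. In the cluster of 24 cells in colon replicate 2, Adamts1 was at 1103 CPM, Adamts4 at 643 CPM and Adamts9 at 441 CPM.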

How the results depend on the processing

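Of 512 values of members under alternatives, 448 kept direction and side of the threshold, 45 newly passed it, 16 fell short and 3 reversed. The reversals were of Adamdec1: colon against small intestine in pericytes was 5.29 without small intestine replicate 2 (range -6.44 to 5.29 leaving out 1 library each), and the colon effect of remaining FB minus CD81+ FB was -0.14 without that library and -0.27 without colon replicate 2 (range -0.27 to 0.56). Few cells per pericyte sum limit the depth there.

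Counts of members called that moved, in the order Pdgfra-high FB, CD81+ FB, remaining FB, SMC and pericytes between intestines, went from 0, 0, 0, 1 and 0 to 1, 1, 1, 3 and 1 by DESeq2 and to 1, 1, 1, 3 and 2 with the replicate block. Without the low-count filter Pdgfra-high FB, CD81+ FB and SMC gave 1, 1 and 3, clusters gave 2 in SMC, and keeping doublets gave 0 in SMC. CD81+ FB against remaining FB gave 1 by DESeq2, with clusters and with both classes alone. Adjusted p alone gave 3 for Pdgfra-high FB and 2 for SMC against remaining FB, and replicate 2 libraries alone gave 1 for pericytes. CD81+ FB minus Pdgfra-high FB gave 5 by DESeq2 and without the filter, against 2. Remaining FB minus Pdgfra-high FB gave 2 by DESeq2, with clusters, at 1000 genes and with the stricter gate, and 4 without the filter, against 1. Adamts15, the member called in the main fit, was not among the 2 by DESeq2. Remaining FB minus CD81+ FB gave 2 with clusters and without the filter, against 1. Leaving out 1 library gave 0 to 1 in CD81+ FB and 1 to 2 in SMC between intestines, 4 to 5 in pericytes against remaining FB, and 2 to 3, 1 to 3 and 1 to 2 in those differences. The cause was not tested.

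Over all genes, the 165, 33, 53, 46 and 0 called between intestines became 658, 320, 522, 314 and 7 by DESeq2, 546, 347, 303, 539 and 8 without the filter, and 887, 408, 680, 445 and 63 with the replicate block. Clusters gave 106 in CD81+ FB and 255 in SMC, and keeping doublets gave 18 in each. Without 1 library they ran from 0 to 376, 24 to 177, 0 to 101, 60 to 198 and 0 to 22, with 0 in Pdgfra-high FB without either small intestinal library. Adjusted p alone raised class counts of 969, 434, 1171, 1235 and 1425 to 2713, 963, 3455, 2778 and 3976. Replicate 2 libraries alone gave 623, 177, 427 and 150 of the first 4, and replicate 1 alone 570 and 73 of the first 2. Without colon replicate 1, SMC and pericytes gave 735 and 653. The Fgfr2 split gave 55 without the filter and 633 on adjusted p alone, against 33. Differences of 1716, 1063 and 513 fell as low as 943, 513 and 220 without 1 library, and the last rose to 988 without the filter and 961 with clusters.

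Same-numbered libraries deviated together (r = 0.75, 0.65, 0.77, 0.60 and 0.62 across genes in the 5 classes), which gives 2 pairs, and their numbers also mark the header version and library size.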

Other observations

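Clusters of other cells gave further values for the members, in single libraries and with no comparison. In the immune clusters of small intestine replicate 1, 62 cells together, Adamdec1 was at 2835 CPM. By cluster it was at 3843 CPM in 39 cells and at 522 CPM in 23 cells. The cluster of 39 cells also held Fgfr2 at 82.4 CPM and Adamts2 at 114 CPM, against 18.0 and 8.99 CPM in the other. The part of FB RNA in these values was not tested. In 54 cells of the interstitial cell of Cajal clusters of colon replicate 2, Adamdec1 was at 170 CPM and Adamts4 at 26.1 CPM. By cluster Adamdec1 was at 63.9 CPM in 25 cells and at 243 CPM in 29 cells.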
